A study of Mus musculus with 4 samples.

Results

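The genes described here serve protein folding in the endoplasmic reticulum (ER) and the stress signalling that adjusts folding capacity, the unfolded protein response. They are 35 genes listed by function, of which 31 had a probe on the array, out of 16593 genes with a probe. Spleen regulatory T cells (Treg) of C57Bl/6 mice aged 8 to 12 weeks had been sorted by a green fluorescent reporter of Foxp3 and stimulated through CD3 with an antibody overnight. The OX86 group also received OX86, an antibody that activates the costimulatory receptor OX40, and the isotype group received rat IgG in its place. Each group had 2 arrays, all on a single slide, and because nothing in the labels tells whether replicates were separate cultures or animals, a p-value here reflects the spread among these 4 arrays alone, which can be purely technical.

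When unfolded protein builds up in the ER, 3 membrane sensors report it. IRE1 (gene Ern1) splices the mRNA of the transcription factor Xbp1, PERK (Eif2ak3) phosphorylates the initiation factor eIF2-alpha and so favours translation of Atf4, and ATF6 is cut in the Golgi to release a transcription factor. Their targets are chaperones, disulfide isomerases and the machinery that returns misfolded protein to the cytosol for degradation. Activated lymphocytes use the same genes to enlarge their secretory pathway. An expression array reads total transcript, so Xbp1 splicing, PERK activity and ATF6 cleavage were not analysed here.

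Many ER stress genes carry the ER stress response element (ERSE), the letters CCAAT and CCACG with any 9 bases between them, a textbook site of NF-Y with ATF6 or XBP1. It was searched on both strands of the RefSeq promoters (GRCm38.p6, 250 bases before and 50 from the transcription start), of which 29 of the 35 genes had at least 1. An ERSE was present in 9 of those 29 genes, and in 39 of all 32851 promoters of the same length (0.119%). The 9 counts genes and the 39 counts promoters, those of the members included. ER stress genes are known for this element, so its frequency among genes listed by function is not independent of the listing. The sites are shown as a description. Each is printed 5′ to 3′ on the gene's strand, with the fixed letters in capitals (CGTGG and ATTGG where the element lies on the opposite strand) and 10 bases on each side.
Hspa5, chr2:34772015-34772053, plus strand: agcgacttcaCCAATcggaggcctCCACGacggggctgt
Hsp90b1, chr10:86705628-86705666, minus strand: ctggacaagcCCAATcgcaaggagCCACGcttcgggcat
Hsp90b1, chr10:86705523-86705561, minus strand: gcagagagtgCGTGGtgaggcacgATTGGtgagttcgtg
Calr, chr8:84847065-84847103, minus strand: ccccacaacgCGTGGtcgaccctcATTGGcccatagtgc
Canx, chr11:50325790-50325828, minus strand: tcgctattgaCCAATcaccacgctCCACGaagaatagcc
Pdia6, chr12:17266481-17266519, plus strand: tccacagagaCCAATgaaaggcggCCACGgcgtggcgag
Dnajc3, chr14:118937817-118937855, plus strand: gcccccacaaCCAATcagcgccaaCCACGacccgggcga
Creld2, chr15:88819510-88819548, plus strand: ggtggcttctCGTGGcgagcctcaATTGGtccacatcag
Derl3, chr10:75893232-75893270, plus strand: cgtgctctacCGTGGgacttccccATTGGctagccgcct
Syvn1, chr19:6046522-6046560, plus strand: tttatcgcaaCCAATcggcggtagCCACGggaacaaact

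The ERSEs began between 212 bases (Hsp90b1) and 44 bases (Syvn1) before the transcription start. A related element, ERSE-II (ATTGG, any base, then CCACG), was found in Herpud1 and Dnajb11 and in 0.0365% of all promoters. The Herpud1 site is shown because it is the only one of these among tested genes.
Herpud1, chr8:94386367-94386397, plus strand: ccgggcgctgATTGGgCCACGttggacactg
The UPRE core (TGACGTGG) and the CARE letters (TGATGCAAT), searched on both strands, were in 0 of the 29 genes and in 0.676% and 0.192% of all promoters. These searched letters did not overlap one another in the members' windows. A match is a description of sequence and not evidence of binding.

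**Figure D1:**
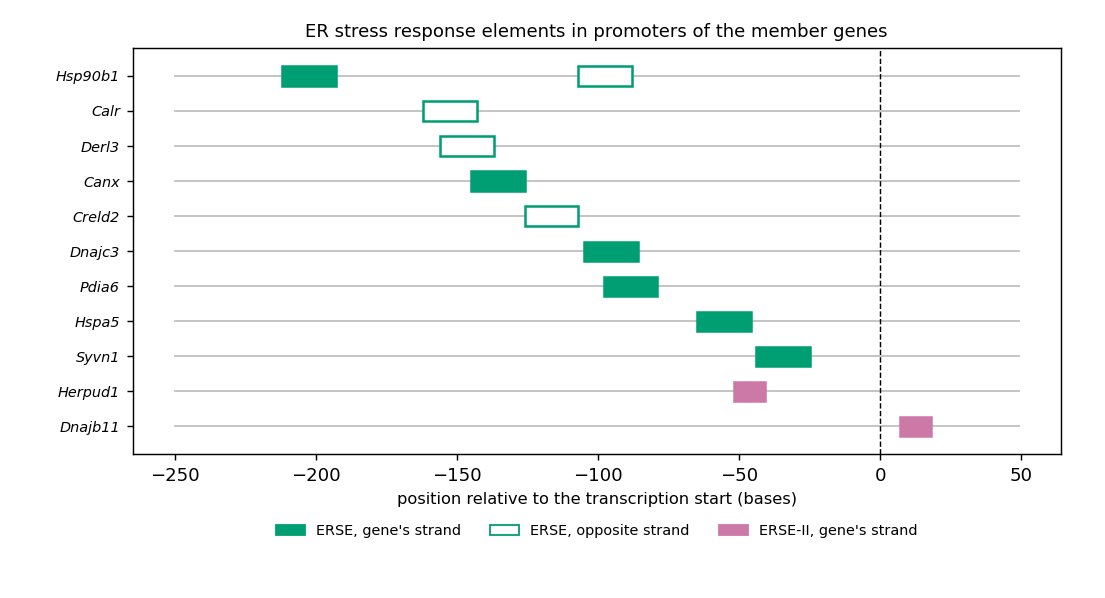
Positions of ER stress response elements in the promoters of 11 genes, in bases from the transcription start (dashed line). Filled boxes lie on the gene's strand and open boxes on the opposite strand; green marks ERSE and pink ERSE-II, and the ERSEs all lie within the 212 bases before the start.

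The OX86 arrays had median deposited signals of 316.0 and 321.8, and the isotype arrays 324.7 and 296.4. Probes with a detection p under 0.05 made up 50.2% and 50.6% on the OX86 arrays, and 53.2% and 45.9% on the isotype arrays. Every member tested below had its lowest deposited signal on isotype 2. The gap was wide for bright genes, Hsp90b1 having 2552 there against 5001 to 7026 on the other arrays. Isotype 2 was the array farthest from the rest, its log2 values departing from the average of the remaining arrays with an SD of 0.438, against 0.307 to 0.318 for each other array. The Treg and T-cell markers with a probe, among them Foxp3, Ctla4, Ikzf2 and Cd3e, were detected on all 4 arrays in 9 of 9 cases. Of 8 B-cell and plasma-cell markers with a probe, the summed normalized signal was 680 and 696 on the OX86 arrays against 866 and 972 on the isotype arrays. Without Pou2af1, a sum made after the values were seen, the other 7 markers came to 438 and 406 on the OX86 arrays against 405 and 428 on the isotype arrays, and the groups overlapped. Pax5 and the plasma-cell genes Sdc1 and Tnfrsf17 were not detected on any array and Jchain on 1. Both sums include these genes and so hold some background signal. Cd79a, Cd79b and Pou2af1 were detected on all 4 arrays, and Pou2af1, a coactivator best known from B cells, had a log2 change of -0.92 (-1.45 to -0.39). Ms4a1 (CD20), a B-cell surface protein, went the other way in mean, with 0.81 (0.13 to 1.49), and was detected on 1 of the isotype arrays. Neither passed after adjustment. The part of these cells in the results was not tested, and in bulk RNA fewer cells of a type and less RNA per cell cannot be told apart.

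A level below is a normalized log2 signal, a change is OX86 minus isotype on the log2 scale, and a gene with several probes is given by its brightest. Probes were tested in limma where detected (detection p under 0.05) on at least 2 of the 4 arrays, and p-values were adjusted by the Benjamini-Hochberg method over all 13338 tested probes. Of the 31 genes with a probe, 24 were tested, 23 of them detected on all 4 arrays. None of the 24 genes passed the threshold of 0.05, as in 0.0% of all tested probes, and the smallest adjusted p in limma was 0.9999. Without adjustment, 0 members had a p under 0.05 in limma, against 3.33% of tested probes. The smallest unadjusted p of a member was 0.209, that of Pdia6 in limma with no adjustment.

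Changes divided evenly, with 12 genes higher and 12 lower in mean with OX86, and 51.0% of all tested probes were higher. The median change was 0.0035, and over all tested probes it was 0.0051. In size, the change was under 0.25 for 21 of the 24 genes (71.3% of tested probes). The 95% interval of the change lay within -1 to 1 for 22 of the 24, the exceptions being Ddit3 and Pdia6, and for 77.3% of tested probes. The half-width of that interval ran from 0.465 to 1.06, with a median of 0.548, so with 2 arrays a group a smaller change could not be told from 0.

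**Figure D2:**
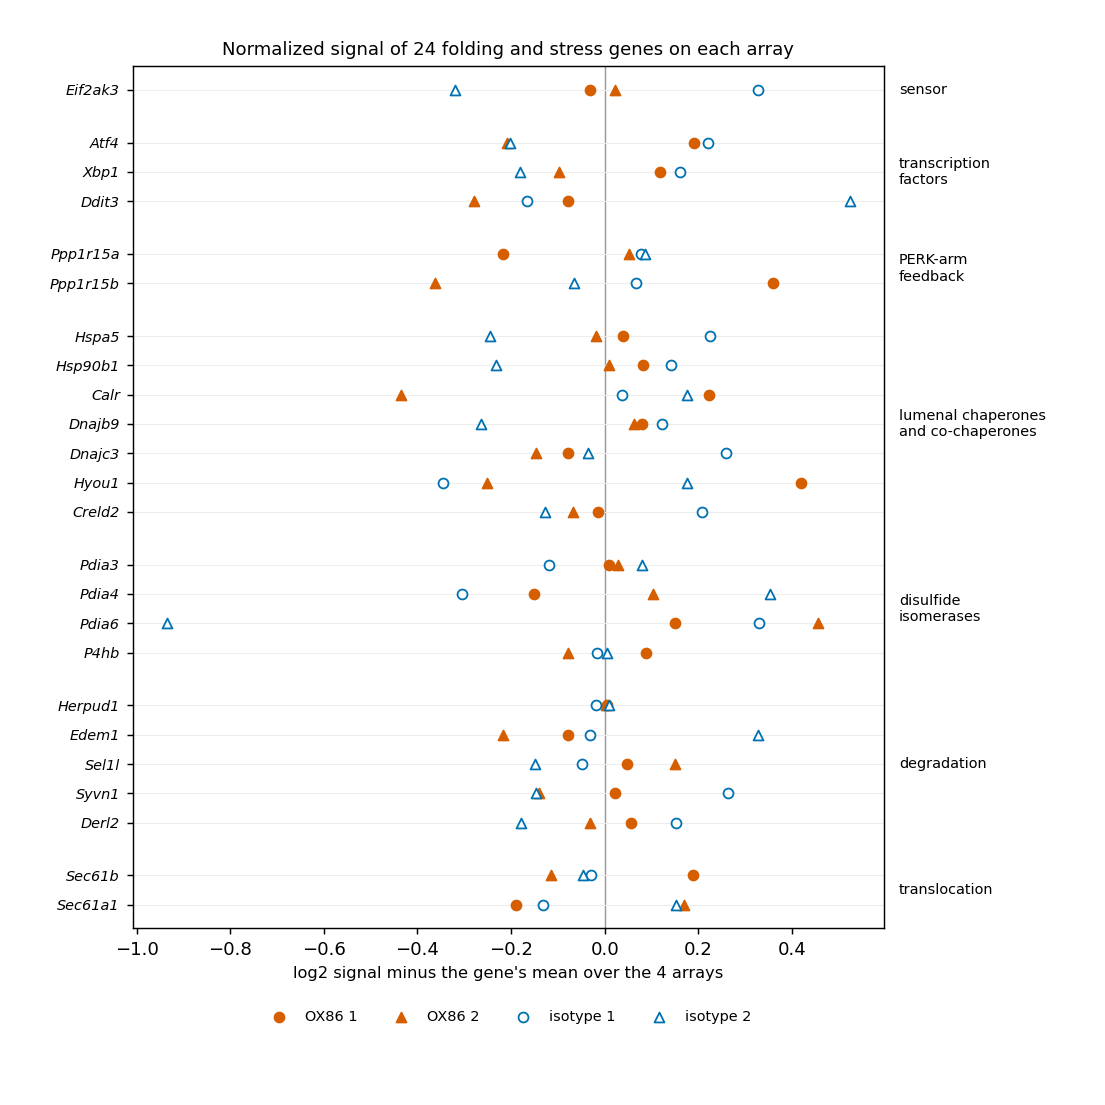
Normalized log2 signal of each tested gene on each array, minus that gene's mean over the 4 arrays, by role. Filled orange points are OX86 arrays and open blue points isotype arrays (circles, array 1; triangles, array 2); the colours mix in most rows, and the isotype 2 point of Pdia6 lies farthest from 0.

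Among the sensors, only Eif2ak3 was tested. Its level was 8.52 and 8.57 on the OX86 arrays, against 8.88 and 8.23 on the isotype arrays. The isotype values enclosed both OX86 values, and the change was -0.01 (95% interval -0.68 to 0.66). Ern1 had a single probe, with levels of 4.91 and 4.73 on the OX86 arrays and 5.15 and 4.95 on the isotype arrays. It was not detected on any array (detection p 0.386 or more), so no change is given, and Atf6 had no probe under its symbol.

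The transcription factors below the sensors were detected on every array. Xbp1, which drives secretory and folding genes, read 11.70 and 11.49 with OX86, against 11.75 and 11.40 with isotype. Its isotype arrays again lay outside the OX86 arrays on both sides, with a change of 0.02 (-0.53 to 0.57). Atf4, which induces amino acid supply and stress genes, read 10.62 and 10.22 with OX86, against 10.65 and 10.23 with isotype. The arrays within each group differed by 0.40 (OX86) and 0.42 (isotype), and the groups by -0.02 (-0.65 to 0.61). Ddit3 encodes CHOP, a factor linked to cell death under lasting stress. Its levels were 8.81 and 8.61 with OX86, against 8.73 and 9.41 with isotype. Only isotype 2 was high, and only after normalization. Its deposited signal was the lowest, at 655.7 against 684.3 to 830.0 on the other arrays. The change of -0.36 (-1.06 to 0.34) became -0.01 without isotype 2, and a second Ddit3 probe gave 0.13 (-0.50 to 0.76).

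Feedback on the PERK arm comes from the phosphatase subunits that dephosphorylate eIF2-alpha. The inducible subunit Ppp1r15a (GADD34) read 8.29 and 8.56 with OX86, against 8.58 and 8.59 with isotype. Both arrays of the OX86 group were lower than both of the isotype group, OX86 1 by more, and the change was -0.16 (-0.67 to 0.34), or -0.03 without OX86 1. The constitutive subunit Ppp1r15b (CReP) had a change of -0.0017, with a distance of 0.72 between its OX86 arrays. Trib3, a pseudokinase induced through ATF4 and CHOP, was not detected on any array.

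The lumenal chaperones were 11 genes, 7 of them tested, with 4 higher and 3 lower in mean with OX86 and a median change of 0.02. Hspa5 encodes BiP, the Hsp70 chaperone that also restrains the sensors. It read 7.64 and 7.58 with OX86, against 7.83 and 7.36 with isotype, a change of 0.02 (-0.56 to 0.60). Its only probe had deposited signals of 355.7 to 560.4, and how well that probe reads the transcript was not tested. Hsp90b1 (GRP94), the ER form of Hsp90, read 12.23 and 12.16 with OX86, against 12.29 and 11.92 with isotype. For both chaperones the OX86 arrays fell between the isotype arrays, and the Hsp90b1 change was 0.09 (-0.45 to 0.63). Their changes were of opposite sign without isotype 2, at -0.21 for Hspa5 and -0.10 for Hsp90b1.

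Calr, the lectin chaperone calreticulin, read 9.17 and 8.52 with OX86, against 8.99 and 9.13 with isotype. OX86 2 alone was low, and the change of -0.21 (-0.89 to 0.47) was 0.12 without it. Dnajc3 (P58IPK), a co-chaperone of BiP, read 8.88 and 8.81 with OX86, against 9.21 and 8.92 with isotype. The groups did not overlap, OX86 being lower, with a change of -0.22 (-0.74 to 0.29), or -0.08 without isotype 1. Hyou1 (GRP170), which renews ATP on BiP, read 6.37 and 5.70 with OX86, against 5.60 and 6.13 with isotype. It was detected on 1 array of each group, so its change of 0.17 (-0.61 to 0.95) rests on values at the detection limit. Dnajb9 (ERdj4), a co-chaperone that directs misfolded protein to BiP, had a change of 0.14, and Creld2 one of -0.08 with a second probe at 0.07.

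Canx, the membrane lectin chaperone calnexin, and Manf, a small stress-induced secreted protein, were not detected on any array. Canx is known as a broadly used chaperone, and a single undetected probe does not show that its transcript was absent. Dnajb11 and Sdf2l1 had no probe under their symbols.

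Among the disulfide isomerases, Pdia6 had the largest change in size of the 24 genes with the normalization used here. Its levels were 7.18 and 7.49 on the OX86 arrays, against 7.36 and 6.10 on the isotype arrays. Isotype 1 lay between the OX86 arrays, and isotype 2 alone was low, at a deposited signal of 303.7 and a detection p of 0.0414. The change of 0.61 (-0.46 to 1.67) was -0.03 without isotype 2 and 1.24 without isotype 1. It was 0.18 both with the authors' processed values and without background correction, where Ddit3 had -0.24, a larger size. P4hb, the founding protein disulfide isomerase, had a change of 0.01 (-0.47 to 0.49). Pdia3 (ERp57), the partner of calreticulin and calnexin, had 0.04 (-0.45 to 0.52), and Pdia4 (ERp72) had -0.05 (-0.74 to 0.65). The median of the 4 was 0.02, and the oxidase gene Ero1l, which recharges these enzymes, had no probe.

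Degradation genes numbered 7, of which 5 were tested, 3 higher and 2 lower in mean with OX86, with a median change of 0.01. Sel1l, the adaptor of the HRD1 ubiquitin ligase, read 9.22 and 9.32 with OX86, against 9.12 and 9.02 with isotype. Both OX86 arrays were above both isotype arrays, with a change of 0.20 (-0.28 to 0.67), while its other probes had 0.31 and -0.19. Edem1, which hands misfolded glycoproteins to that ligase, read 7.51 and 7.37 with OX86, against 7.55 and 7.91 with isotype. Here both OX86 arrays were below both isotype arrays, with a change of -0.30 (-0.84 to 0.25), or -0.12 without isotype 2. As deposited, isotype 2 had the lowest Edem1 signal, at 401.0 against 440.2 to 506.4 on the other arrays. Without background correction the Edem1 change was -0.13.

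Syvn1, the HRD1 ligase itself, had a change of -0.12 (-0.68 to 0.45), with its groups overlapping. Herpud1, a scaffold of the ligase complex and a common marker of ER stress, read 11.78 and 11.77 with OX86, against 11.75 and 11.78 with isotype. All 4 arrays lay close together, with a change of 0.01 (-0.46 to 0.47). The second Herpud1 probe had -0.20 (-0.69 to 0.30), with both OX86 arrays below both isotype arrays. Derl2, a membrane protein of the retrotranslocation channel, had a change of 0.03, while Derl1 (3 probes) and Derl3 (1 probe) were not detected on any array. In the translocation machinery, Sec61b had 0.07 and the channel subunit Sec61a1 had -0.02. At the second Sec61b probe the change was 0.32 (-0.17 to 0.81), with both OX86 arrays above both isotype arrays. Ssr1 of the translocon-associated complex was not detected.

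**Figure D3:**
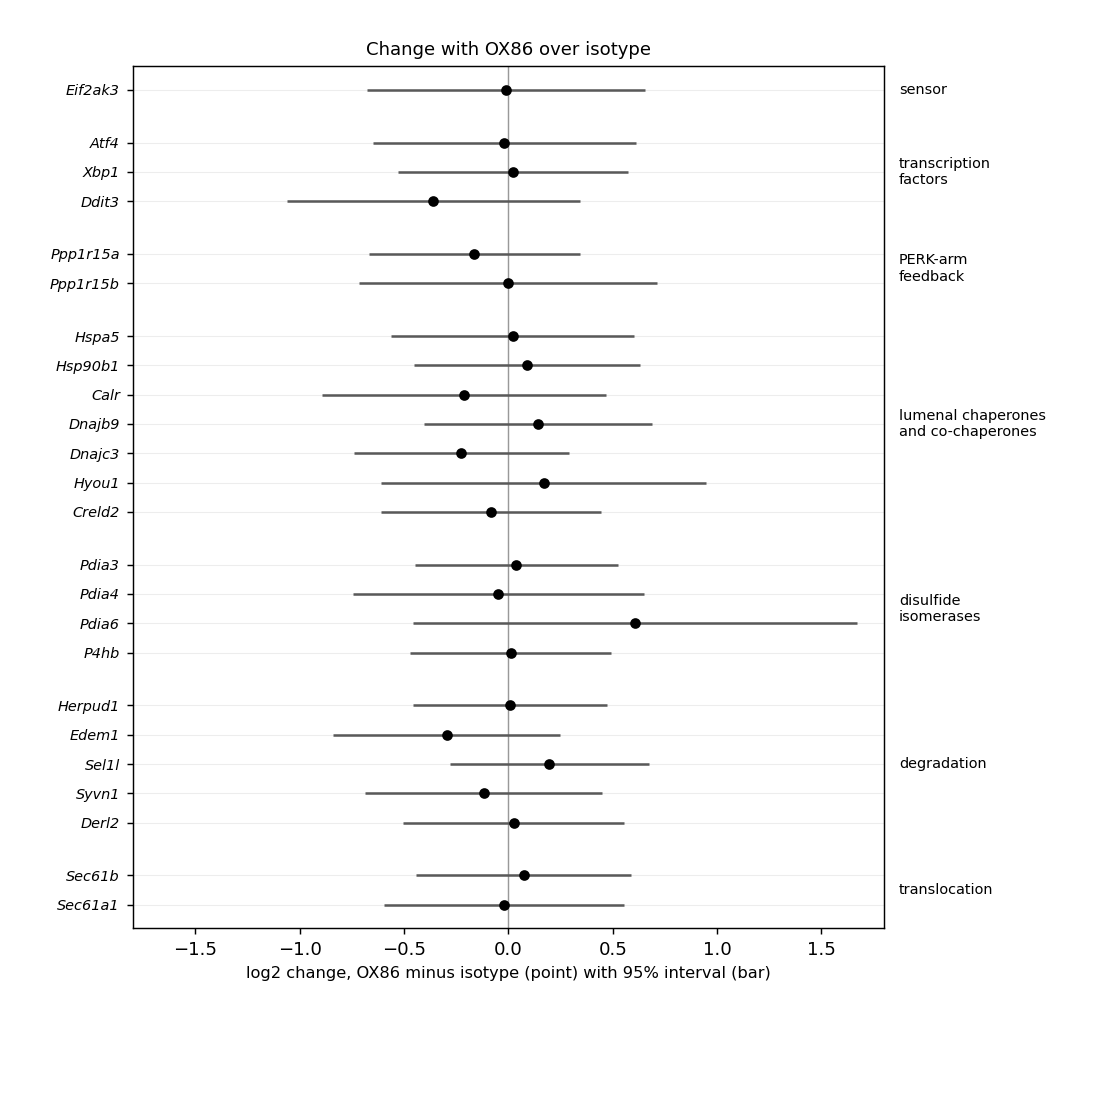
Log2 change with OX86 over isotype (points) and 95% intervals (bars) for the 24 tested genes, by role. Each interval crosses 0, and those of Ddit3 and Pdia6 reach beyond 1 in size.

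By role, the median changes were -0.01 (sensor, 1 gene), -0.02 (transcription factors, 3), -0.08 (PERK-arm feedback, 2), 0.02 (chaperones, 7), 0.02 (disulfide isomerases, 4), 0.01 (degradation, 5) and 0.03 (translocation, 2). With arrays left out in turn, the medians ran from -0.33 to 0.31 (sensor), -0.22 to 0.19 (transcription factors), -0.20 to 0.030 (PERK-arm feedback), -0.14 to 0.12 (chaperones), -0.030 to 0.079 (disulfide isomerases), -0.12 to 0.088 (degradation) and -0.040 to 0.093 (translocation), so each turned sign. Groups did not overlap for 4 of the 24 genes (16.7%), against 26.9% of all tested probes. OX86 was above isotype in Sel1l (13.9% of tested probes) and below it in Ppp1r15a, Dnajc3 and Edem1 (13.1% of tested probes). Those 4 were counted at each gene's brightest probe, and groups also did not overlap at the second probes of Sec61b and Herpud1. For 23 of the 24 genes, the distance between the arrays of at least 1 group exceeded the change between groups, as in 83.7% of tested probes. The exception was Sel1l.

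Genes with an ERSE in the promoters printed above did not stand to one side. Of these, 7 were tested, 3 higher (Hspa5, Hsp90b1 and Pdia6) and 4 lower (Calr, Dnajc3, Creld2 and Syvn1), with a median change of -0.08. The 14 tested genes that had a promoter without the element were 8 higher and 6 lower, with a median of 0.01.

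In 19 of the 24 genes the change had the opposite sign in at least 1 of the fits that left out an array. Ddit3, Ppp1r15a, Dnajc3, Edem1 and Sel1l kept their sign in all 4 such fits, where a group kept a lone array whose spread was taken from the other group. Without isotype 1, the changes of Pdia6 and Ddit3 were 1.24 and -0.70, and the isotype side of both rested on isotype 2 alone. Without isotype 2 the median over the 24 genes was -0.08, with 8 higher and 16 lower.

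**Figure D4:**
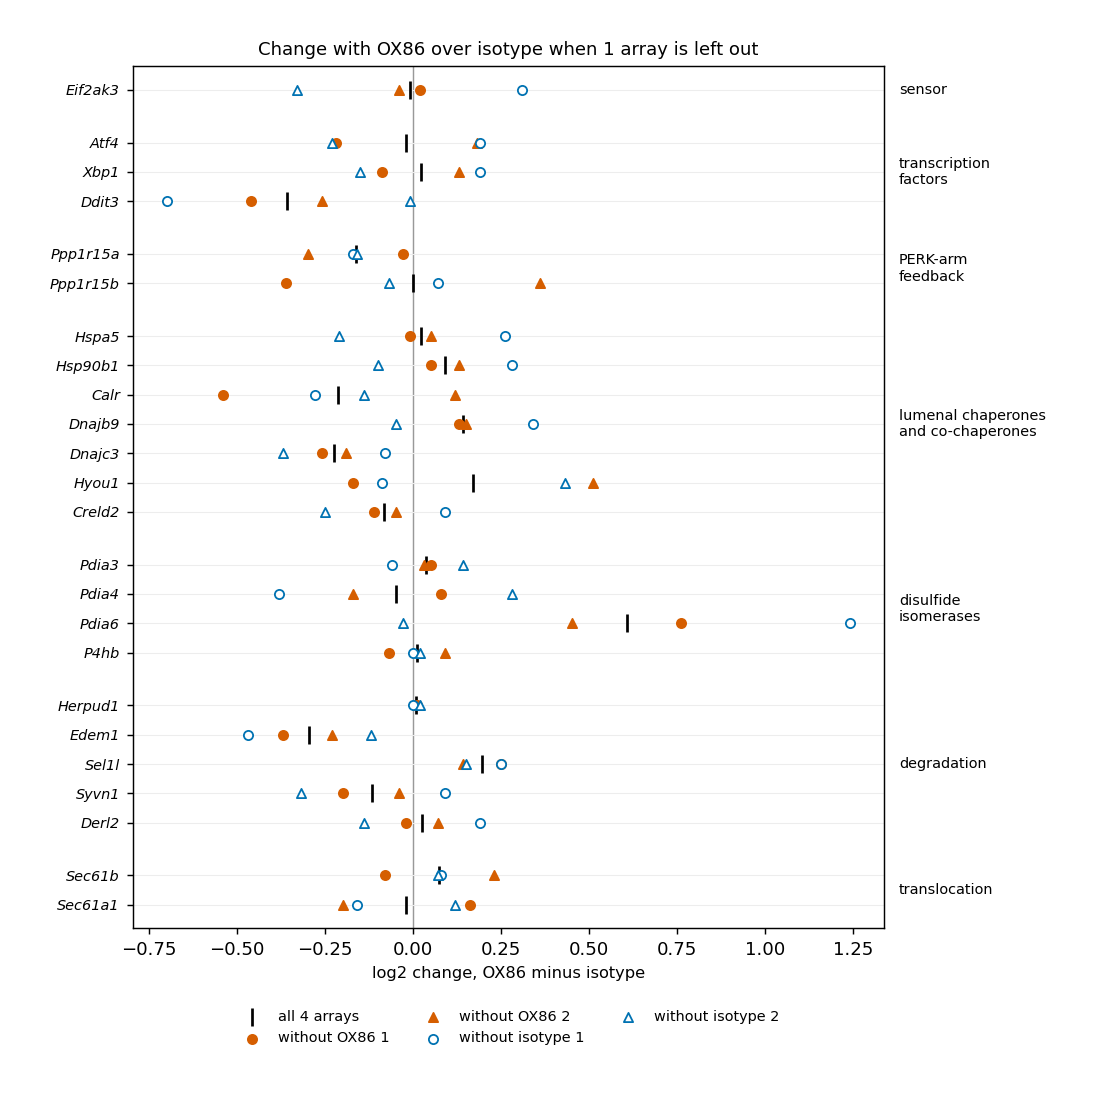
Log2 change of each tested gene over all 4 arrays (black ticks) and with 1 array left out (points, named by the array removed). For Pdia6 the points run from -0.03 without isotype 2 to 1.24 without isotype 1.

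A wider set of 91 other genes of the same pathways showed the same lack of calls. Of these, 84 had a probe and 71 were tested, with a median change of 0.05. In mean 43 were higher and 28 lower with OX86, or 60.6% higher against 51.0% of all tested probes. In limma 0 passed after adjustment, as in 0.0% of all tested probes, and 0 had an unadjusted p under 0.05, against 3.33%. Groups did not overlap for 19 (26.8%), close to the 26.9% of all tested probes. Other stress signalling genes had a median of 0.11 over 16 genes, which was -0.06 without isotype 1 and 0.0002 without OX86 2. In that list, Cebpg, a partner of ATF4, had -0.31 (-0.84 to 0.21), Atf5 had 0.32 (-0.32 to 0.96), and Eif2ak1, another eIF2-alpha kinase, had -0.22 (-0.69 to 0.25). Without OX86 2, Atf5 had 0.035 and Cebpg -0.15, and with the authors' processed values they had 0.12 and -0.081. Other folding genes had a median of 0.02 over 17, with 0.38 (-0.17 to 0.94) for the transmembrane oxidoreductase Tmx3, -0.34 (-1.06 to 0.37) for Cnpy3 and -0.26 (-0.80 to 0.28) for Sec63, which brings BiP to the translocon. That median turned to -0.034 over probes detected on all 4 arrays, to -0.021 with median scaling (relative to the median of all tested probes), to -0.015 without OX86 2, to -0.0042 without isotype 1 and to -0.028 without isotype 2. Tmx3 had 0.12 with the authors' processed values and 0.18 without OX86 1, and without OX86 2 Cnpy3 had -0.023 and Sec63 -0.076.

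Other degradation genes had a median change of 0.08 over 15 tested genes, which was 0.024 without OX86 1 and 0.049 without OX86 2. Its genes with the smallest p were Nploc4, a cofactor of the VCP segregase, at -0.22 (-0.81 to 0.37), Faf2 at 0.17 (-0.32 to 0.66) and the ubiquitin ligase Marchf6 at 0.20 (-0.40 to 0.79). Nploc4 had -0.012 without OX86 1, Marchf6 0.010 without isotype 2 and Faf2 0.085 without isotype 1. Translocation and glycosylation genes had a median of 0.04 over 23, which was 0.062 without OX86 1 and 0.086 without isotype 1. Srprb and Srp14, of the signal recognition receptor and particle, lay on opposite sides of 0, with -0.35 (-0.83 to 0.13) and 0.30 (-0.18 to 0.78). The oligosaccharyltransferase subunit Rpn2 had -0.31 (-0.81 to 0.19), and none of these passed. Without OX86 2, Rpn2 had -0.20, and averaged over its probes Srprb had 0.016.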

How the data were processed

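Total RNA of 4 samples was hybridised as biotinylated complementary RNA to 1-colour Illumina bead arrays. The authors deposited a linear signal intensity and a detection p-value per probe and array, and a second table of processed intensities that served as an alternative. Per the submitters' processing notes the software was BeadStudio, with no version or settings stated in these sources. Signals were background-corrected, quantile-normalized and taken to log2 with neqc (offset 16, control statistics inferred from detection p-values) in limma 3.58.1 under R 4.3.3. Probes detected on at least 2 arrays (13338 of 25697) were fitted with lmFit and eBayes, two-sided and without covariates, on 2 residual and 3.68 prior degrees of freedom. The fit was also run on simulated arrays with independent values and no array effects. That run does not show what size of change could be called here. Gene names came from the platform annotation (23978 probes with 1 symbol, 0 with several, 1719 with none), promoters from RefSeq (GRCm38.p6). Probe sequences were not used, so hybridisation to related genes was not assessed. The number of arrays limits the precision. The members, lists, named-gene rule and tests were chosen with earlier results of these data known. By that rule, the sensors, the transcription factors and the 8 members with the largest changes got values on every array, as did Hspa5, Hsp90b1 and Herpud1, added after their values were seen, and up to 3 genes of smallest p were named per wider list. Of other cell markers with a probe, 3 of 9 myeloid genes were tested (median change -0.16), 3 of 7 NK-cell and CD8 T-cell genes (0.21) and 1 of 4 erythroid and platelet genes (-0.35). That gene, Hba-a1, read 10.11 and 9.14 with OX86, against 10.69 and 9.26 with isotype, the arrays numbered 1 being higher. Cd8b1, Klrd1, Eomes, S100a8 and Lyz1 were detected on all 4 arrays, and Cd8a, Ncr1, Klrb1c, Gzmk, Itgam and Itgax on 0. Cd8b1 read 9.61 and 9.54 with OX86, against 9.57 and 9.79 with isotype. Cd4 read lower on each array, at 8.72 and 9.03 with OX86, against 8.72 and 9.14 with isotype, though levels of different probes are not directly comparable. The share of other cells was not tested.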

Additional observations from a re-analysis of the deposited data

How the results depend on the processing

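Calls were 0 for all probes, for the 24 member genes and for the wider pathway set under each of 12 alternatives. The replicate number as a block also gave 0 calls, with 522 probes at an unadjusted p under 0.05 against 444 without the block; deviations of same-numbered arrays correlated at 0.0655, so the numbers were not taken to pair the samples. Median scaling moved the median of all tested probes to 0.118, and values under it are relative to that. Then Eif2ak3 had 0.0030 and Sec61a1 0.0040. Ppp1r15b had 0.0088 with the authors' processed values and without background correction, and averaging a gene's probes gave -0.094 for Herpud1, 0.016 for Srprb and -0.094 for the degradation median. With arrays left out in turn, the median over members ran from -0.083 to 0.074, that of chaperones from -0.14 to 0.12 and that of degradation genes from -0.12 to 0.088. The change ran over these ranges in the genes whose sign turned when an array was left out: Eif2ak3 -0.33 to 0.31, Atf4 -0.23 to 0.19, Xbp1 -0.15 to 0.19, Ppp1r15b -0.36 to 0.36, Hspa5 -0.21 to 0.26, Hsp90b1 -0.10 to 0.28, Calr -0.54 to 0.12, Dnajb9 -0.053 to 0.34, Hyou1 -0.17 to 0.51, Creld2 -0.25 to 0.086, Pdia3 -0.062 to 0.14, Pdia4 -0.38 to 0.28, Pdia6 -0.025 to 1.24, P4hb -0.072 to 0.094, Herpud1 -0.00484 to 0.022, Syvn1 -0.32 to 0.088, Derl2 -0.14 to 0.19, Sec61b -0.078 to 0.23, Sec61a1 -0.20 to 0.16.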

Other observations

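In 10 of the 24 tested genes (41.7%), Atf4, Xbp1, Ppp1r15b, Hspa5, Hsp90b1, Dnajb9, Creld2, Syvn1, Derl2 and Sec61b, both arrays numbered 1 lay above both arrays numbered 2, against 20.0% of all tested probes. The reverse held for 3 genes, Pdia3, Pdia4 and Sec61a1, against 18.0% of tested probes. This count was made after the values were seen and has no test.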
